A study of Mus musculus with 9 samples.

Results

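The integrin and laminin genes of the mouse colon epithelium were followed across 3 sorted cell populations. The members were all rows of the expression table whose symbol names an integrin alpha subunit (18 rows), an integrin beta subunit (8 rows) or a laminin chain (11 rows), 37 of 24421 rows in all. RNA came from adult mice labelled female, of strain C57BL/6J with no genetic change named. Each population had 3 libraries, and within a population each was sorted from another mouse. Per the labels the 9 libraries come from 3 mice, and whether same-numbered libraries share a mouse is not said. The goblet-enriched population was Epcam+, Cd44+ and Kit+ and is labelled as cells of the crypt bottom rich in goblet cells. The enterocyte-enriched population was Epcam+, Cd44-neg and Cd66a-high and is labelled as rich in enterocytes of the crypt top. The Lgr5-enriched population was Epcam+, Cd44+ and Kit-neg and is labelled as crypt-bottom cells rich in Lgr5+ cells. All populations were released with EDTA and collagenase, and cells that stained for Cd3, Cd16/Cd32, Cd31 or Cd45 were sorted out. The gates enrich a cell type and do not purify it, and crypt release removes cells from the matrix they sat on.

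Integrins are transmembrane receptors made of an alpha and a beta subunit, and the pair decides which matrix protein is bound. Laminins are trimers of an alpha, a beta and a gamma chain that form the sheet of the basement membrane on which epithelial cells rest. In epithelia the α6β4 integrin anchors the cell to laminin-332, which holds the Lama3 and Lamb3 chains, through hemidesmosomes, α3β1 and α6β1 bind laminins, and α2β1 binds collagens. The leukocyte integrins pair with Itgb2 or Itgb7 and are found on blood cells, so their transcripts also show how well the sort removed these cells.

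Levels are in TPM, the transcript abundance corrected for transcript length and scaled to a fixed total of 1000000 per library, so that levels of different genes can be set side by side. Whole reads recovered from the values gave a depth of 11164348 to 26781805 reads a library, so that a single read on a transcript of 1 kb added 0.0958 to 0.208 TPM. The summed level of the 9 goblet cell markers was 45634 to 62390 TPM in goblet-enriched, 14529 to 22782 TPM in enterocyte-enriched and 1502 to 1666 TPM in Lgr5-enriched libraries. That of the 8 colonocyte markers in the table was 575 to 1087, 5733 to 9126 and 292 to 510 TPM in the same populations, and that of 8 stem cell markers was 549 to 603, 127 to 200 and 1119 to 1332 TPM. The sum of each marker list was thus highest in the population named for it, while the enterocyte-enriched libraries also held goblet cell transcripts. Single markers did not all follow the sums in the test described below. Of the 9 goblet cell markers, 5 were called higher and 2 lower in goblet-enriched against enterocyte-enriched libraries. Of the 8 stem cell markers, 6 were called lower and 1 higher in goblet-enriched against Lgr5-enriched libraries. Sex-linked transcripts of the library labelled enterocyte-enriched replicate 1 went against its female label, with Xist at 0.128 TPM and a Y-linked sum of 139 TPM, whereas Xist was 110 to 204 TPM and the Y-linked sum at most 0.325 TPM in the other 8 libraries. The 3 libraries numbered 1 also stood apart in several members, as given below.

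Of the 37 members, 21 reached 1 TPM in at least 3 libraries and were tested, and 16 did not. Averaged over the 9 libraries, the most abundant were Itga6 (175 TPM), Itgb1 (157 TPM), Itgb4 (124 TPM) and Itga3 (85.7 TPM), the subunits of the laminin-binding integrins. These 4 were also the first 4 in each population, in a different order. Lamb3 (51.1 TPM) followed among the laminins, and Itga2 (35.5 TPM), Itga5 (23.3 TPM) and Itgb5 (22.4 TPM) among the integrins. Just inside the filter lay Itgae, at 0.345 to 1.85 TPM over the 9 libraries, and just outside it lay Itgb2 (0 to 3.27 TPM) and Lamb1 (0.0497 to 1.87 TPM). Itgb3 was listed at 0 in every library. Lama3 passed the filter only through the 3 enterocyte-enriched libraries and Lama4 only through the 3 Lgr5-enriched libraries, so these genes had to differ between populations.

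**Figure D1:**
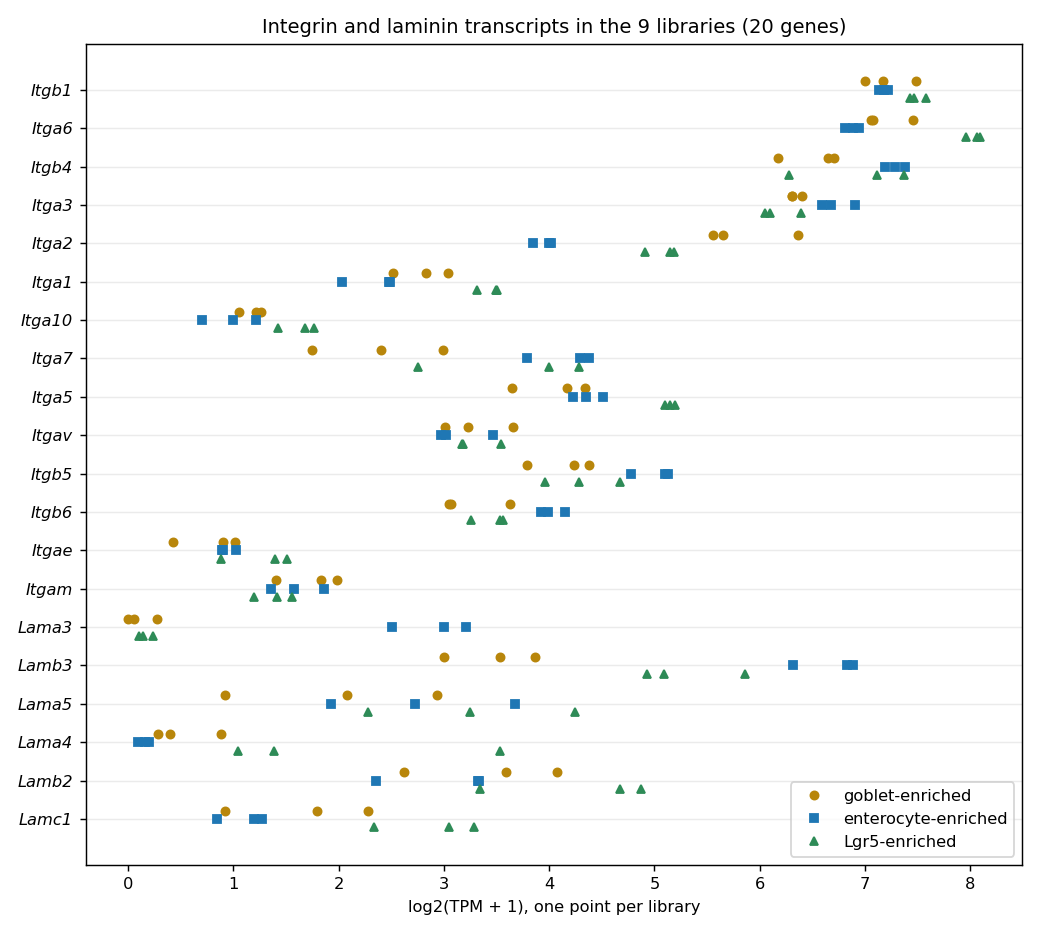
Level of 20 of the 21 tested members in each library, as log2(TPM + 1) on the horizontal axis, with 1 symbol per library and the populations drawn as circles (goblet-enriched), squares (enterocyte-enriched) and triangles (Lgr5-enriched). The laminin-binding integrin subunits lie furthest to the right, and the Lama3 squares, at 4.68 to 8.23 TPM, are clear of the circles and triangles, at 0 to 0.206 TPM.

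The members were compared between populations with limma on log2(TPM + 1), with adjustment over all 12888 tested genes and a call at an adjusted p below 0.05. In goblet-enriched against Lgr5-enriched libraries, 1 of the 21 tested members was higher (Itga2) and 6 were lower (Itga1, Itga5, Itga6, Itga7, Lamb3 and Lamc1). These 7 are 33.3% of the tested members, and 34.3% of all tested genes were called. In enterocyte-enriched against Lgr5-enriched libraries, 5 were higher (Itga3, Itgb5, Itgb6, Lama3 and Lamb3) and 7 lower (Itga1, Itga2, Itga5, Itga6, Itga10, Lama4 and Lamc1), which is 57.1% against 49.6% of all tested genes. In goblet-enriched against enterocyte-enriched libraries, 1 was higher (Itga2) and 7 were lower (Itga3, Itga7, Itgb4, Itgb5, Itgb6, Lama3 and Lamb3), which is 38.1% against 44.1% of all tested genes. These counts include Lama3 and Lama4, whose difference the filter fixed, and are read only against the background, to which the share of members called was close in each comparison. With the replicate number as a block the counts of members called were 10, 16 and 11. This block is by number and not by mouse, since enterocyte-enriched replicate 1 differs in sex-linked transcripts from the other libraries numbered 1. Each pair of comparisons shares a population, so the comparisons are not independent.

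By direction, 10.7% of all tested genes were higher and 23.6% lower in goblet-enriched against Lgr5-enriched libraries, 12.0% and 37.6% in enterocyte-enriched against Lgr5-enriched libraries, and 28.2% and 15.9% in goblet-enriched against enterocyte-enriched libraries. The median log2 fold change of the tested members was -0.45, -0.32 and -0.16 in these comparisons, and that of all tested genes was -0.26, -0.35 and 0.20. Median-of-ratios scaling moved the medians of all genes to -0.05, 0.02 and 0.04. Under it the counts of members higher and lower were 1 and 3, 7 and 5, and 1 and 8, and under quantile normalization they were 1 and 4, 6 and 3, and 2 and 6. The balance of higher and lower members against the Lgr5-enriched population therefore depended on the scaling. The 3 libraries of each population did not overlap for 8, 14 and 11 of the 21 tested members in the 3 comparisons, against 48.0%, 61.9% and 56.5% of all tested genes. Without the library labelled enterocyte-enriched replicate 1, 8 members were called in enterocyte-enriched against Lgr5-enriched libraries and 6 in goblet-enriched against enterocyte-enriched libraries. Both Itga2 and Lamb3 were called in all 3 comparisons, whereas Itgae, Itgam, Itgav, Itgb1, Lama5 and Lamb2 were called in none.

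**Figure D2:**
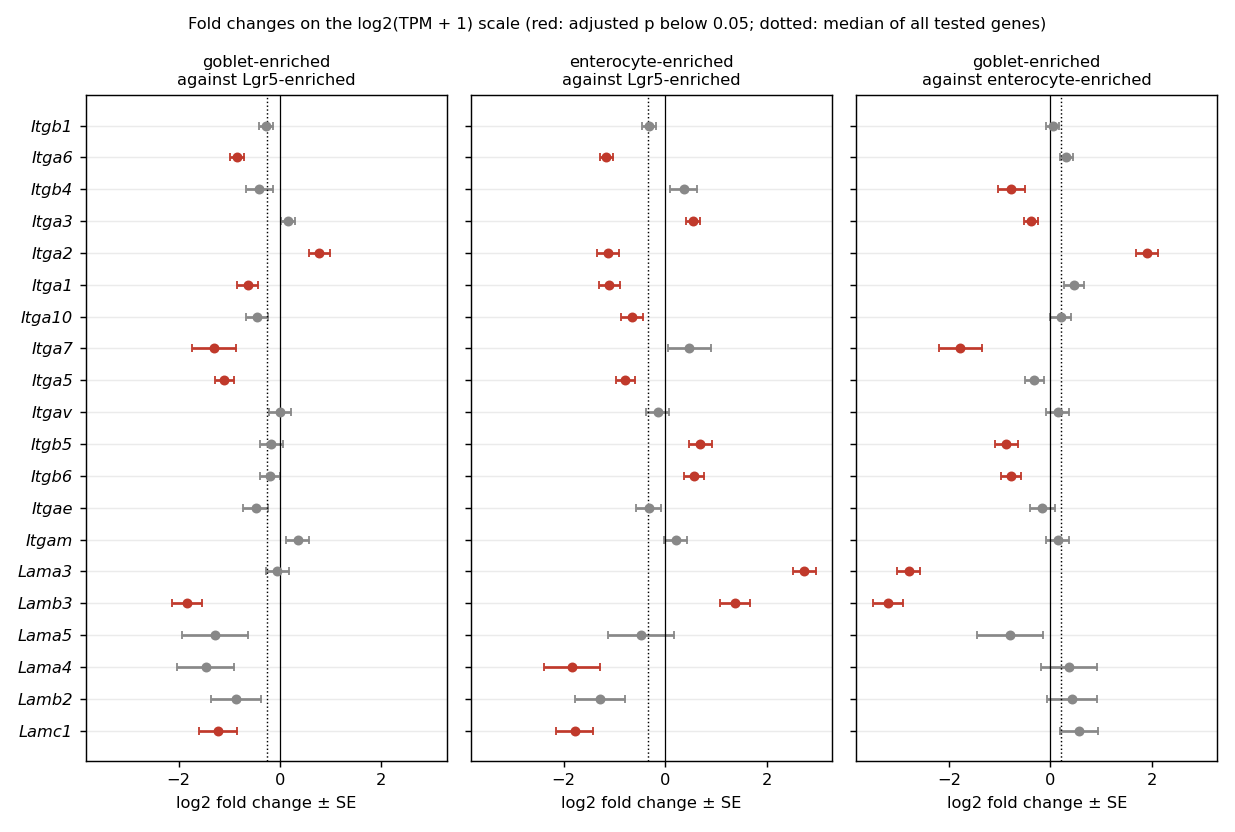
Log2 fold change (± SE, horizontal axis) of 20 of the 21 tested members in the 3 comparisons, with red points for calls and a dotted line at the median of all tested genes. Lamb3 is called in all panels, at -1.83, 1.38 and -3.21, and Itga2 at 0.78, -1.13 and 1.90, and the filter fixed that Lama3 and Lama4 differ.

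Promoter sequences from RefSeq (GRCm38.p6, the reference of mm10) were found for 23 of the 37 members, 26 promoters in all, each reaching from 250 bases before to 50 bases after a start. Those of 3 members are shown, each a member with its highest mean in another population: Lamb3 for enterocyte-enriched (1 of its 2 starts, chr1:193301744-193302043, plus strand), Itga2 for goblet-enriched (chr13:114932051-114932350, minus strand) and Itga5 for Lgr5-enriched libraries (chr15:103366742-103367041, minus strand). All are written 5′ to 3′ on the gene's strand, with matches of the GC box GGGCGG, on either strand, in capitals.
Lamb3: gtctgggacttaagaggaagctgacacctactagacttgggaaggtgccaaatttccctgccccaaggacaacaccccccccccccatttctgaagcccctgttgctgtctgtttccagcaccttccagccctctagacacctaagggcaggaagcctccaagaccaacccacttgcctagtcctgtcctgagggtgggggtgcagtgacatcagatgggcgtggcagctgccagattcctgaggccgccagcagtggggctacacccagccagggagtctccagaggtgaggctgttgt
Itga2: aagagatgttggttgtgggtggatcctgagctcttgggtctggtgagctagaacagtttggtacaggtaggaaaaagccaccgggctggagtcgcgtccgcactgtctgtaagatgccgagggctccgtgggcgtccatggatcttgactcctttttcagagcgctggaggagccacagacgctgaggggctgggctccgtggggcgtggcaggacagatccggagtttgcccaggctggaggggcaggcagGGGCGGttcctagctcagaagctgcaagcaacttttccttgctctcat
Itga5: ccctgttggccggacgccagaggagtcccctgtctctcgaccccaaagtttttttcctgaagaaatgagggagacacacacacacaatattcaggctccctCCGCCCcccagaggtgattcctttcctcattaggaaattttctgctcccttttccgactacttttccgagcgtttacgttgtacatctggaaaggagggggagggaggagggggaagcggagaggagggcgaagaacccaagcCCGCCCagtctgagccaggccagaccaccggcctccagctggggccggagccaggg
The Lamb3 promoter had no match of the GC box, that of Itga2 had 1 and that of Itga5 had 2. GGGCGG was found in 12 of the 26 member promoters and in 35.7% of all 32851 promoters of the same length in the table, the AP-1 motif TGANTCA in 3 and 7.81%, and the TCF/LEF core CTTTGA in 5 and 16.0%, with both strands searched and each motif counted on its own. None of the 3 promoters shown held a TGANTCA or CTTTGA match.

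Lamb3, the beta chain of laminin-332, with 1 of its promoters printed above (chromosome 1, 193207699 to 193343878, mm10), stood at 6.99, 13.6 and 10.6 TPM in goblet-enriched, 113, 117 and 78.4 TPM in enterocyte-enriched, and 29.6, 57.2 and 33.0 TPM in Lgr5-enriched replicates 1, 2 and 3, the order of libraries used throughout. The 3 populations did not overlap, with enterocyte-enriched libraries highest and goblet-enriched libraries lowest. Its level was 9.91-fold lower in goblet-enriched than in enterocyte-enriched libraries as a ratio of means (log2 fold change of -3.21 with an SE of 0.30, limma adjusted p = 7.91e-05). It was 2.58-fold higher in enterocyte-enriched (log2 fold change 1.38, limma adjusted p = 0.00462) and 3.85-fold lower in goblet-enriched libraries (log2 fold change -1.83, limma adjusted p = 0.00209) than in Lgr5-enriched libraries. Relative to the median of all genes these changes were -3.41, 1.73 and -1.57 on the log2 scale, and all 3 calls held in the 18 alternatives. In bulk samples, fewer cells of a type and less RNA per cell cannot be told apart.

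Lama3, the alpha chain of laminin-332, was found mainly in the enterocyte-enriched libraries. It was at 0, 0.0366 and 0.206 TPM in goblet-enriched libraries (0, 2 and 11 recovered reads), 8.23, 6.99 and 4.68 TPM in enterocyte-enriched libraries (409, 499 and 278 reads), and 0.0741, 0.180 and 0.103 TPM in Lgr5-enriched libraries (8, 9 and 6 reads). Enterocyte-enriched libraries did not overlap with the others, which lay near the detection limit. The level averaged 6.63 ± 1.80 TPM in enterocyte-enriched and 0.119 ± 0.0545 TPM in Lgr5-enriched libraries (SD, n = 3 each). The goblet-enriched libraries averaged 0.0808 ± 0.110 TPM, a mean that goblet-enriched replicate 3 set, being 0.0183 TPM without it. A difference between goblet-enriched and Lgr5-enriched libraries was not detectable at this depth (limma adjusted p = 0.873). Because the filter passed Lama3 through the enterocyte-enriched libraries alone, no test against these is given.

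Among the laminin chains, Lamb3 made up 17.4 ± 4.76%, 63.2 ± 6.55% and 39.3 ± 3.04% of the summed laminin chain TPM in goblet-enriched, enterocyte-enriched and Lgr5-enriched libraries (SD, n = 3 each). The shares of the 3 populations did not overlap, and the enterocyte-enriched libraries, at 57.5 to 70.3%, were highest, against 12.5 to 22.0% in goblet-enriched and 36.1 to 42.1% in Lgr5-enriched libraries.

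**Figure D3:**
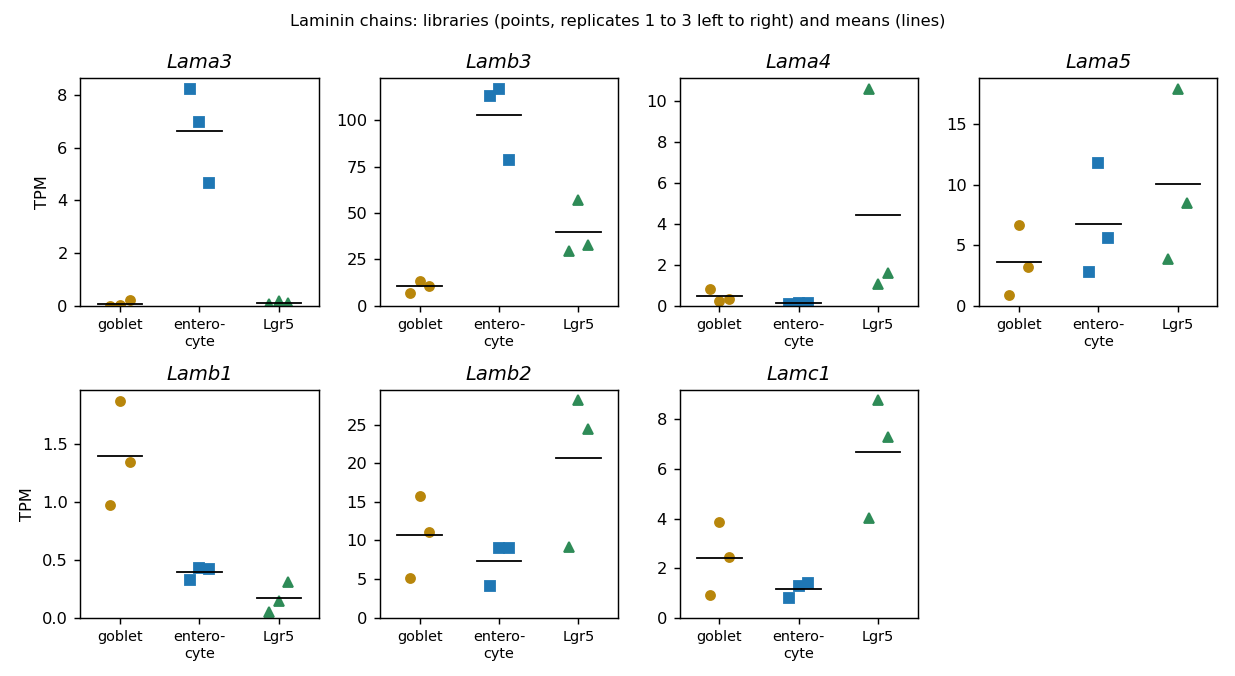
TPM (vertical axis, a scale of its own in each panel, from 0) of 7 laminin chains in the libraries of each population, with replicates 1 to 3 from left to right and the mean as a line. Lama3 and Lamb3 are highest in the enterocyte-enriched libraries, at means of 6.63 and 103 TPM, and Lama4, Lamb2 and Lamc1 have their highest means, 4.42, 20.6 and 6.70 TPM, in the Lgr5-enriched libraries.

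Outside laminin-332, the tested chains Lamc1, Lama4, Lama5 and Lamb2 had their highest mean in the Lgr5-enriched libraries, and of these Lamc1 passed a test that the filter had not decided. Lamc1, a gamma chain found in many laminins, stood at 0.897, 3.85 and 2.46 TPM in goblet-enriched, 0.792, 1.29 and 1.42 TPM in enterocyte-enriched, and 4.03, 8.77 and 7.29 TPM in Lgr5-enriched libraries. The Lgr5-enriched libraries were above all others. Lamc1 was lower in enterocyte-enriched than in Lgr5-enriched libraries (log2 fold change of -1.79 with an SE of 0.37, limma adjusted p = 0.00377) and in goblet-enriched than in Lgr5-enriched libraries (log2 fold change -1.23, limma adjusted p = 0.0312). The second call ended under median-of-ratios scaling (0.0550), with no filter (0.0527), in the fit to the 6 libraries compared (0.0566) and without goblet-enriched replicate 1 or 3 (0.0761 and 0.0617) or Lgr5-enriched replicate 2 or 3 (0.0997 and 0.0975; range over the alternatives 0.0028 to 0.0997). In goblet-enriched against enterocyte-enriched libraries (log2 fold change 0.56, limma adjusted p = 0.245) it passed without goblet-enriched replicate 1 (0.0493) and without the 3 libraries numbered 1 (0.0315; range 0.0315 to 0.618).

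Lama4, an alpha chain best known from vessels, muscle and fat, stood at 0.841, 0.219 and 0.320 TPM in goblet-enriched, 0.0688, 0.12 and 0.144 TPM in enterocyte-enriched, and 10.6, 1.06 and 1.61 TPM in Lgr5-enriched libraries. Lgr5-enriched replicate 1 stood far above the other libraries of its population, and all 3 were above the rest. The Lgr5-enriched mean was 4.42 TPM with and 1.34 TPM without replicate 1. Because the filter passed Lama4 through the Lgr5-enriched libraries alone, these levels are a description and no test is given. The summed level of 12 stromal and muscle markers was 3.06 to 14.5 TPM in goblet-enriched, 13.2 to 16.5 TPM in enterocyte-enriched and 11.1 to 22.3 TPM in Lgr5-enriched libraries, with Lum at 0 in all and Des at 0 in the Lgr5-enriched ones. That of 10 endothelial and platelet markers was 6.75 to 11.3, 7.55 to 12.0 and 11.0 to 14.7 TPM, with none at 0 in a whole population. The stromal and muscle sums of the populations overlapped. Acta2, only 1 of these 12 markers, was at 3.05 TPM in Lgr5-enriched replicate 1 and 0.271 to 0.737 TPM in the other 8 libraries, whereas Des, another muscle marker, was at 0 in that replicate. The part of such cells in the Lama4 level was not tested.

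Lama5, the main alpha chain of the intestinal basement membrane, and Lamb2, a beta chain, varied widely with the replicate number. Lama5 stood at 0.893, 6.64 and 3.21 TPM in goblet-enriched, 2.81, 11.8 and 5.60 TPM in enterocyte-enriched, and 3.84, 17.9 and 8.51 TPM in Lgr5-enriched libraries. Lamb2 was at 5.14, 15.8 and 11.0 TPM in goblet-enriched, 4.11, 9.05 and 8.98 TPM in enterocyte-enriched, and 9.13, 28.2 and 24.5 TPM in Lgr5-enriched libraries. In each population replicate 1 was lowest and replicate 2 highest for both genes. Within each replicate number Lama5 was lowest in the goblet-enriched and highest in the Lgr5-enriched library, and Lamb2 was lowest in the enterocyte-enriched and highest in the Lgr5-enriched one. Without the block neither gene passed a test (limma adjusted p = 0.0532 to 0.563). With the replicate number as a block both were called in all 3 comparisons, at limma adjusted p = 0.000428, 0.020 and 0.00239 for Lama5 and 0.00315, 0.000384 and 0.0457 for Lamb2, in the order of comparisons used above. Lama5 was called in no other alternative. By its sex-linked transcripts, enterocyte-enriched replicate 1 came from another mouse than the other libraries numbered 1. The blocked values against enterocyte-enriched libraries are therefore not a test paired by mouse. The lowest and highest adjusted p over the alternatives were 0.000428 and 0.989 for Lama5 and 0.000384 and 0.897 for Lamb2. Lamb2 was also called without the 3 libraries numbered 1 (0.0115 for goblet-enriched and 0.00232 for enterocyte-enriched against Lgr5-enriched libraries), and in enterocyte-enriched against Lgr5-enriched libraries also without goblet-enriched replicate 1 (0.0367) or Lgr5-enriched replicate 1 (0.0132).

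Lamb1, a beta chain of many basement membrane laminins, did not reach the filter. It stood at 0.971, 1.87 and 1.34 TPM in goblet-enriched, 0.324, 0.426 and 0.422 TPM in enterocyte-enriched, and 0.0497, 0.143 and 0.307 TPM in Lgr5-enriched libraries, so that the goblet-enriched libraries were above all others. With no filter it was called higher in goblet-enriched than in Lgr5-enriched (limma adjusted p = 0.0021) and in enterocyte-enriched libraries (limma adjusted p = 0.00532). Lama1, Lama2 and Lamc3 did not exceed 0.0359 TPM in any library.

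The laminin-binding integrins were led by Itga6, the alpha subunit of α6β4 and α6β1 (chromosome 2, 71745616 to 71858416). It stood at 175, 134 and 132 TPM in goblet-enriched, 122, 118 and 111 TPM in enterocyte-enriched, and 272, 248 and 267 TPM in Lgr5-enriched libraries. Lgr5-enriched libraries were above all others, and goblet-enriched and enterocyte-enriched libraries did not overlap either. Itga6 was 1.79-fold lower in goblet-enriched (log2 fold change of -0.85 with an SE of 0.13, limma adjusted p = 0.0016) and 2.24-fold lower in enterocyte-enriched (log2 fold change -1.16, limma adjusted p = 0.000274) than in Lgr5-enriched libraries. These changes were -0.59 and -0.81 relative to the median of all genes, and both calls held in the 18 alternatives. Goblet-enriched against enterocyte-enriched libraries gave a log2 fold change of 0.31 (limma adjusted p = 0.0783), which was called with the replicate block (0.0337) and under quantile normalization (0.0423; range over the alternatives 0.0337 to 0.544).

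Itgb4, the beta subunit of the hemidesmosome integrin (chromosome 11, 115974709 to 116008412), had another pattern than its partner Itga6. It was at 71.4, 104 and 99.6 TPM in goblet-enriched, 155, 165 and 145 TPM in enterocyte-enriched, and 76.7, 164 and 138 TPM in Lgr5-enriched libraries. The goblet-enriched libraries were below all enterocyte-enriched ones, and Lgr5-enriched replicate 1 was far below replicates 2 and 3. Itgb4 was lower in goblet-enriched than in enterocyte-enriched libraries (log2 fold change of -0.77 with an SE of 0.26, limma adjusted p = 0.0388). The call ended under quantile normalization (0.0673), with no filter (0.0610), without any one of the goblet-enriched replicates (0.118, 0.0538 and 0.0616) or enterocyte-enriched replicates (0.0861, 0.0978 and 0.0665), and without Lgr5-enriched replicate 3 (0.0518; range over the alternatives 0.00574 to 0.118). In the other comparisons Itgb4 was not called (limma adjusted p = 0.254 and 0.275), except in enterocyte-enriched against Lgr5-enriched libraries under median-of-ratios scaling (0.0271; range 0.0271 to 0.858) and in goblet-enriched against Lgr5-enriched libraries without Lgr5-enriched replicate 1 (0.0184) or without the 3 libraries numbered 1 (0.0131; range 0.0131 to 0.63). The level of Itgb4 divided by that of Itga6 was 0.409 to 0.775 in goblet-enriched, 1.27 to 1.41 in enterocyte-enriched and 0.282 to 0.661 in Lgr5-enriched libraries. In TPM, Itgb4 was thus above Itga6 in the 3 enterocyte-enriched libraries and in none of the other 6.

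Itga3, the alpha subunit of the laminin receptor α3β1 (chromosome 11, 95044474 to 95076801), stood at 78.0, 83.7 and 78.1 TPM in goblet-enriched, 119, 101 and 95.2 TPM in enterocyte-enriched, and 65.2, 83.1 and 67.4 TPM in Lgr5-enriched libraries. The enterocyte-enriched libraries were above the other 6. Itga3 was 1.46-fold higher in enterocyte-enriched than in Lgr5-enriched libraries (log2 fold change of 0.54 with an SE of 0.13, limma adjusted p = 0.00866), a call that held in the 18 alternatives. It was lower in goblet-enriched than in enterocyte-enriched libraries (log2 fold change -0.39, limma adjusted p = 0.0419). This call ended under quantile normalization (0.0557), without goblet-enriched replicate 1, 2 or 3 (0.0800, 0.0726 and 0.10), enterocyte-enriched replicate 1 or 2 (0.130 and 0.0806) or Lgr5-enriched replicate 3 (0.0610), and without the 3 libraries numbered 1 (0.105; range over the alternatives 0.0123 to 0.130).

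Itgb1, the common partner of most alpha subunits (chromosome 8, 128685654 to 128733200), stood at 178, 143 and 127 TPM in goblet-enriched, 139, 147 and 144 TPM in enterocyte-enriched, and 190, 176 and 172 TPM in Lgr5-enriched libraries. The enterocyte-enriched libraries lay below the Lgr5-enriched ones, and the goblet-enriched libraries overlapped with both. No comparison was called (log2 fold changes -0.28, -0.32 and 0.04, limma adjusted p = 0.142, 0.0781 and 0.822). Enterocyte-enriched against Lgr5-enriched libraries passed with the replicate block (0.0453), in the fit to the 6 libraries compared (0.0374), without goblet-enriched replicate 1 (0.0243) and without the 3 libraries numbered 1 (0.0487; range over the alternatives 0.0243 to 0.642), but the fold change was 0.09, of the opposite sign, under median-of-ratios scaling. Goblet-enriched against Lgr5-enriched libraries passed without goblet-enriched replicate 1 (0.0245) and without the 3 libraries numbered 1 (0.0183; range 0.0183 to 0.829).

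Itga7, the alpha subunit of the laminin receptor α7β1, best known from muscle, stood at 2.36, 6.93 and 4.28 TPM in goblet-enriched, 12.8, 18.6 and 19.8 TPM in enterocyte-enriched, and 5.74, 18.5 and 15.0 TPM in Lgr5-enriched libraries. Goblet-enriched libraries were below all enterocyte-enriched ones and overlapped with Lgr5-enriched replicate 1. Itga7 was 3.77-fold lower in goblet-enriched than in enterocyte-enriched libraries (log2 fold change of -1.77 with an SE of 0.43, limma adjusted p = 0.00937), and this call held in the 18 alternatives. In goblet-enriched against Lgr5-enriched libraries it passed narrowly (log2 fold change -1.30, limma adjusted p = 0.0429) and did not in 11 of the 18 alternatives. These were both other scalings (0.0692 and 0.0524), no filter (0.0734), the fit to 6 libraries (0.0733), limma-voom (0.106) and leaving out goblet-enriched replicate 1 or 3 (0.124 and 0.0914), enterocyte-enriched replicate 2 or 3 (0.0575 and 0.0585) or Lgr5-enriched replicate 2 or 3 (0.135 and 0.134; range over the alternatives 0.00221 to 0.135).

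The make-up of the integrin subunit transcripts differed between the populations. Itga6 made up 44.9 ± 2.10% of the summed alpha subunit TPM in goblet-enriched, 40.2 ± 0.556% in enterocyte-enriched and 59.6 ± 2.94% in Lgr5-enriched libraries (SD, n = 3 each). Itga3 made up 24.8 ± 3.30%, 36.1 ± 2.49% and 16.3 ± 2.18%, and Itga2 17.8 ± 3.52%, 5.00 ± 0.359% and 7.48 ± 0.771% in the same populations. For each of these shares the libraries of 1 population, Lgr5-enriched for Itga6, enterocyte-enriched for Itga3 and goblet-enriched for Itga2, lay above the other 6. Itgb1 and Itgb4 together held 90.3 ± 0.675%, 86.1 ± 1.49% and 91.2 ± 0.821% of the summed beta subunit TPM. The alpha subunit sum was 294 to 372 TPM in goblet-enriched, 279 to 306 TPM in enterocyte-enriched and 439 to 442 TPM in Lgr5-enriched libraries. Beta subunits summed to 252 to 274, 331 to 363 and 290 to 377 TPM, and laminin chains to 47.9 to 77.5, 127 to 204 and 70.2 to 144 TPM.

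**Figure D4:**
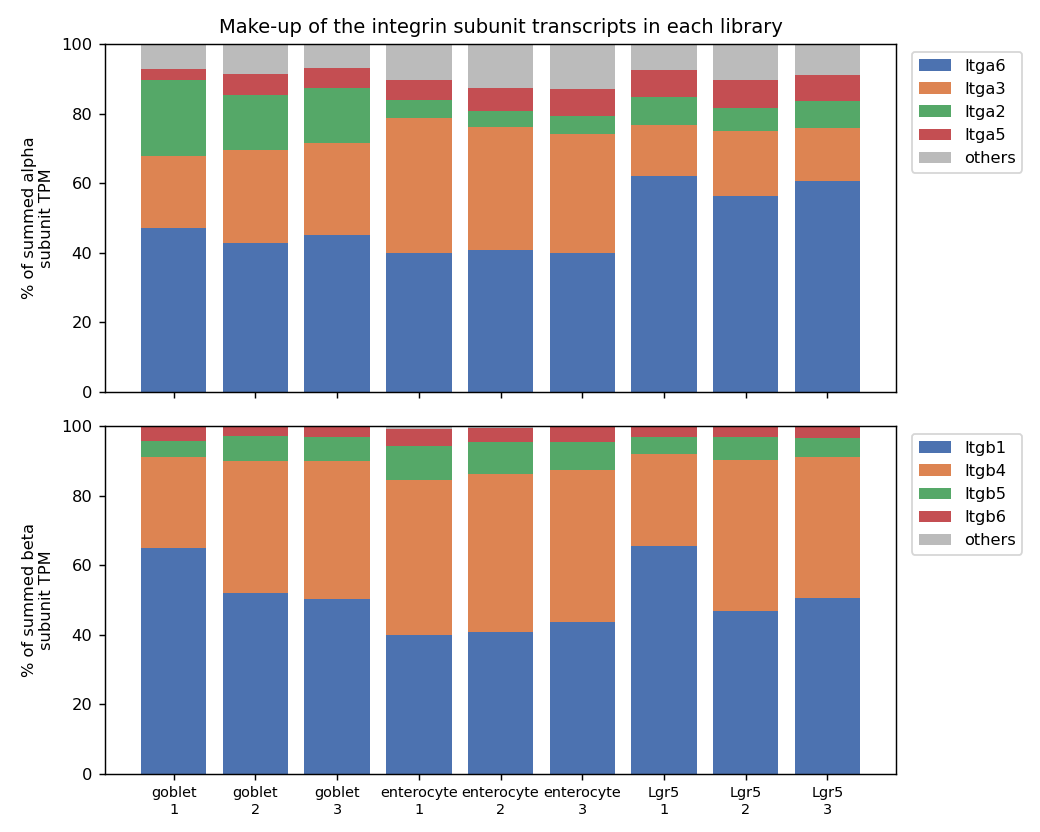
Share of each subunit in the summed alpha (top) and beta (bottom) integrin subunit TPM, in percent (vertical axis), with 1 bar per library. Itga6 takes 56.3 to 61.9% of the alpha sum in the Lgr5-enriched libraries and 39.9 to 46.9% in the other 6, and Itga2 takes 15.7 to 21.8% in the goblet-enriched libraries and 4.64 to 8.04% in the other 6.

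Among the collagen-binding alpha subunits, Itga2, which forms α2β1 and whose promoter holds 1 GC box match (chromosome 13, 114833081 to 114932100), was highest in goblet-enriched and lowest in enterocyte-enriched libraries. It stood at 81.3, 49.4 and 46.1 TPM in goblet-enriched, 15.2, 13.4 and 15.0 TPM in enterocyte-enriched, and 35.3, 29.1 and 34.4 TPM in Lgr5-enriched libraries, and the 3 populations did not overlap. Its level was 4.06-fold higher in goblet-enriched than in enterocyte-enriched libraries (log2 fold change of 1.90 with an SE of 0.21, limma adjusted p = 0.000165). It was 2.27-fold lower in enterocyte-enriched (log2 fold change -1.13, limma adjusted p = 0.00213) and 1.79-fold higher in goblet-enriched (log2 fold change 0.78, limma adjusted p = 0.0197) than in Lgr5-enriched libraries. Relative to the median of all genes the changes were 1.70, -0.78 and 1.03. The first 2 calls held in the 18 alternatives, and that of goblet-enriched against Lgr5-enriched libraries ended without Lgr5-enriched replicate 2 or 3 (0.0642 and 0.0526; range 0.00665 to 0.0642).

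Itga1, the alpha subunit of the collagen receptor α1β1, lies 20996 bases from Itga2 on the same strand of chromosome 13 and had another order of levels. It stood at 7.24, 6.11 and 4.72 TPM in goblet-enriched, 3.10, 4.60 and 4.57 TPM in enterocyte-enriched, and 10.3, 10.3 and 8.93 TPM in Lgr5-enriched libraries, with the Lgr5-enriched libraries above all others. It was lower in enterocyte-enriched than in Lgr5-enriched libraries (log2 fold change of -1.10 with an SE of 0.20, limma adjusted p = 0.00214), a call that ended in 1 alternative, quantile normalization (0.0520; range 0.00198 to 0.0520). The lower level in goblet-enriched against Lgr5-enriched libraries (log2 fold change -0.64, limma adjusted p = 0.0384) was not called in 10 of the 18 alternatives. These were both other scalings (0.140 and 0.224), no filter (0.0723) and leaving out goblet-enriched replicate 2 or 3 (0.0833 and 0.123), enterocyte-enriched replicate 2 or 3 (0.0523 and 0.0516) or any Lgr5-enriched replicate (0.0829, 0.102 and 0.0740; range 0.0205 to 0.224).

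Itga10, another collagen receptor subunit, best known from cartilage, stood at 1.39, 1.32 and 1.07 TPM in goblet-enriched, 0.990, 1.32 and 0.622 TPM in enterocyte-enriched, and 2.39, 2.21 and 1.69 TPM in Lgr5-enriched libraries. The Lgr5-enriched libraries were highest, and the other populations overlapped. It was lower in enterocyte-enriched than in Lgr5-enriched libraries (log2 fold change -0.66, limma adjusted p = 0.0281). That call ended under both other scalings (0.159 and 0.300) and without enterocyte-enriched replicate 1 or 3 (0.0580 and 0.101), Lgr5-enriched replicate 1 or 2 (0.0761 and 0.0766) or the 3 libraries numbered 1 (0.0953; range 0.0134 to 0.300). Itga11, the last of the collagen receptor subunits, was at 0 to 0.125 TPM and was not tested.

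Of the receptors for fibronectin, vitronectin and latent TGF-beta, which read the RGD peptide, Itga5 was highest in the Lgr5-enriched libraries. This alpha subunit of the fibronectin receptor α5β1, with 2 GC box matches in its promoter (chromosome 15, 103344286 to 103366763) stood at 11.5, 19.2 and 16.9 TPM in goblet-enriched, 17.7, 19.3 and 21.8 TPM in enterocyte-enriched, and 34.5, 35.7 and 33.4 TPM in Lgr5-enriched libraries. The Lgr5-enriched libraries were above all others, which overlapped. Itga5 was 2.17-fold lower in goblet-enriched (log2 fold change of -1.10 with an SE of 0.19, limma adjusted p = 0.00251) and 1.76-fold lower in enterocyte-enriched (log2 fold change -0.79, limma adjusted p = 0.00725) than in Lgr5-enriched libraries. The first call held in the 18 alternatives and the second ended under both other scalings (0.0985 and 0.0768; range 0.00141 to 0.0985). In goblet-enriched against enterocyte-enriched libraries (log2 fold change -0.31, limma adjusted p = 0.201) Itga5 was called under both other scalings (0.0460 and 0.0445; range 0.0445 to 0.545).

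Itgb5 and Itgb6, which are among the beta subunits that pair with Itgav, were highest in the enterocyte-enriched libraries. Itgb5, part of a vitronectin receptor, stood at 12.8, 19.7 and 17.9 TPM in goblet-enriched, 34.0, 33.2 and 26.4 TPM in enterocyte-enriched, and 14.6, 24.5 and 18.5 TPM in Lgr5-enriched libraries. Itgb6, the epithelial subunit of a receptor that activates latent TGF-beta, was at 11.4, 7.38 and 7.27 TPM in goblet-enriched, 16.8, 14.2 and 14.9 TPM in enterocyte-enriched, and 8.53, 10.8 and 10.6 TPM in Lgr5-enriched libraries. For both genes the enterocyte-enriched libraries were above the other 6, which overlapped. Both were lower in goblet-enriched than in enterocyte-enriched libraries (log2 fold changes -0.87 and -0.77, SE 0.22 and 0.20, limma adjusted p = 0.0127 and 0.0118), and these calls held in the 18 alternatives. They were higher in enterocyte-enriched than in Lgr5-enriched libraries (log2 fold changes 0.70 and 0.57, limma adjusted p = 0.0284 and 0.0366). The Itgb5 call ended without enterocyte-enriched replicate 1 or 2 (0.0847 and 0.0802), Lgr5-enriched replicate 1 or 3 (0.0875 and 0.0741) or the 3 libraries numbered 1 (0.0767; range 0.00329 to 0.0875). The Itgb6 call ended with no filter (0.0609) and without any one of the enterocyte-enriched replicates (0.105, 0.0623 and 0.0751) or Lgr5-enriched replicates (0.102, 0.0576 and 0.0691; range 0.00471 to 0.105), and goblet-enriched against Lgr5-enriched libraries passed without the 3 libraries numbered 1 (0.0243; range 0.0243 to 0.999), though its fold change there had the opposite sign under quantile normalization.

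Itgav, the alpha subunit shared by these receptors, stood at 11.6, 8.35 and 7.08 TPM in goblet-enriched, 10.03, 7.13 and 6.84 TPM in enterocyte-enriched, and 10.6, 8.07 and 8.0 TPM in Lgr5-enriched libraries. The populations overlapped, replicate 1 was highest in each, and no comparison was called in any alternative (limma adjusted p = 0.997, 0.617 and 0.622). The other RGD-binding subunits stayed below the filter. Itga8 was at 0 to 0.10 TPM in goblet-enriched, 0.0752 to 0.271 TPM in enterocyte-enriched and 0.182 to 1.07 TPM in Lgr5-enriched libraries. With no filter it was called lower in goblet-enriched than in Lgr5-enriched libraries (limma adjusted p = 0.0382), on only 0, 2 and 3 against 11, 29 and 35 recovered reads. Itga2b, the platelet fibrinogen receptor subunit, was at 0.276 to 0.338, 0.908 to 1.18 and 0.111 to 0.840 TPM in the same populations. With no filter it was called lower in goblet-enriched than in enterocyte-enriched libraries (limma adjusted p = 0.0305), on only 6, 5 and 6 against 15, 28 and 18 recovered reads. Its partner Itgb3 was listed at 0 in every library, and Itgb8 did not exceed 0.267 TPM. Itga4 and Itga9, receptors for VCAM-1 and tenascin among others, did not exceed 0.169 and 0.160 TPM.

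The leukocyte integrins did not exceed 3.27 TPM in any library. Itgb2, the beta subunit common to the β2 integrins of blood cells, stood at 0, 0.199 and 0.135 TPM in goblet-enriched, 3.27, 1.92 and 0.0609 TPM in enterocyte-enriched, and 0.0335, 0.432 and 0.248 TPM in Lgr5-enriched libraries. It was thus raised in enterocyte-enriched replicates 1 and 2 and not in replicate 3. Several macrophage markers were high in the same libraries: Csf1r stood at 2.90, 1.65 and 0.225 TPM, C1qb at 4.90, 1.77 and 0.328 TPM, Tyrobp at 11.8, 6.91 and 0.308 TPM, and Lyz2 at 232, 133 and 12.9 TPM in enterocyte-enriched replicates 1, 2 and 3. Over the list of 22 leukocyte markers, 6, 9 and 4 reached 1 TPM in a library of the goblet-enriched, enterocyte-enriched and Lgr5-enriched populations, and the summed level was 98.2 to 105, 103 to 426 and 114 to 216 TPM. Without Cd14, Cd68 and Lyz2, a choice made after their values were seen, the sum was 2.45 to 6.03, 3.11 to 30.5 and 2.42 to 3.62 TPM. The T cell genes Cd3d, Cd3g and Cd4 were at 0 in all enterocyte-enriched libraries, and Ptprc, the gene of the Cd45 antigen used in the sort, did not exceed 0.153 TPM there and reached 1.20 TPM in goblet-enriched replicate 3. Enterocyte-enriched replicate 3 had the lowest values of Csf1r, C1qb, Tyrobp and Lyz2 in its population, and members went both ways there. Lamb3 (78.4 TPM) and Itga3 (95.2 TPM) were also at their lowest of the population in it, whereas Itga5 (21.8 TPM) and Itga7 (19.8 TPM) were at their highest. The part of such cells in the levels of the members was not tested.

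Itgam, the alpha subunit of the macrophage integrin αMβ2, fell from enterocyte-enriched replicate 1 to 3 as Itgb2 did, though less steeply. Across the populations Itgam did not follow Itgb2. It stood at 2.96, 2.55 and 1.65 TPM in goblet-enriched, 2.62, 1.98 and 1.56 TPM in enterocyte-enriched, and 1.29, 1.94 and 1.67 TPM in Lgr5-enriched libraries, and the populations overlapped (limma adjusted p = 0.265, 0.480 and 0.638). Its exons overlap those of Gm49368 on the same strand over 210 bases, so its reads cannot be told apart from those of that gene there. Itgae, the alpha subunit of the E-cadherin receptor of intraepithelial T cells, was at 0.345, 0.870 and 1.02 TPM in goblet-enriched, 0.865, 0.856 and 1.03 TPM in enterocyte-enriched, and 0.838, 1.85 and 1.63 TPM in Lgr5-enriched libraries, and no comparison was called (limma adjusted p = 0.160, 0.302 and 0.632). Its partner Itgb7 was at 0.283 to 0.393, 0.0778 to 0.195 and 0.179 to 0.463 TPM, and Itgal, Itgax and Itgad did not exceed 0.697, 0.205 and 0.121 TPM in any library.

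**Figure D5:**
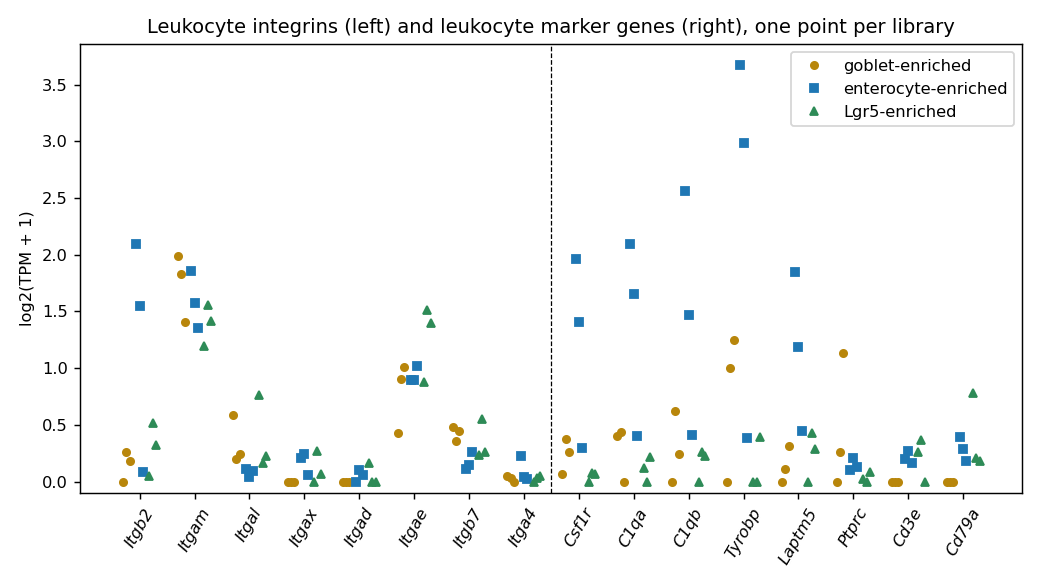
Level of 8 leukocyte integrin subunits (left of the dashed line) and 8 leukocyte marker genes (right), as log2(TPM + 1) on the vertical axis, with 1 symbol per library and replicates 1 to 3 from left to right within a population. Itgb2 and the macrophage genes Csf1r, C1qa, C1qb, Tyrobp and Laptm5 are high in enterocyte-enriched replicates 1 and 2 and lower in replicate 3, whereas Cd3e stays at or below 0.287 TPM.

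The proteins that work with these receptors were examined as lists. The counts of each list are to be read against the shares of all tested genes given above. Of 9 hemidesmosome partners 7 were tested, and 3 were higher and 0 lower in enterocyte-enriched against Lgr5-enriched libraries: Cd151, the tetraspanin of α3β1 and α6β4 (151 ± 10.2 TPM in enterocyte-enriched and 104 ± 11.7 TPM in Lgr5-enriched libraries, SD, n = 3 each; limma adjusted p = 0.0047), the keratin Krt8 (log2 fold change 1.43, limma adjusted p = 0.00244) and the cytolinker Plec (log2 fold change 1.20, limma adjusted p = 0.023). Cd151 held in the 18 alternatives, whereas the call of Krt8 ended under quantile normalization (0.101; range 0.000687 to 0.101). That of Plec ended without enterocyte-enriched replicate 1 or 2 (0.0772 and 0.0532), Lgr5-enriched replicate 1 or 3 (0.0727 and 0.0596) or the 3 libraries numbered 1 (0.0814; range 0.00627 to 0.0814). In goblet-enriched against enterocyte-enriched libraries Krt18 was higher (log2 fold change 0.94, limma adjusted p = 0.00311), and Krt8, Krt14 and Cd151 were lower (log2 fold changes -1.98, -1.73 and -0.71, limma adjusted p = 0.000515, 0.000626 and 0.00144). Against Lgr5-enriched libraries the goblet-enriched ones had 1 member of the list higher, Krt18 (log2 fold change 0.88, limma adjusted p = 0.00643), and 1 lower, Krt14 (log2 fold change -1.17, limma adjusted p = 0.00687). The median log2 fold change of the list was -0.17, 0.54 and -0.71 in the 3 comparisons, in the order used above.

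All 11 integrin-associated tetraspanins and lateral partners were tested. In goblet-enriched against Lgr5-enriched libraries 2 were higher and 1 lower, where 10.7% and 23.6% of all tested genes were. In enterocyte-enriched against Lgr5-enriched libraries 8 were higher and 1 lower (12.0% and 37.6% of all), and in goblet-enriched against enterocyte-enriched libraries 2 and 6 (28.2% and 15.9%). The counts were 4 and 0, 8 and 1, and 2 and 7 under median-of-ratios scaling. Under quantile normalization they were 3 and 1, 6 and 1, and 2 and 6. Tspan1 was highest in the enterocyte-enriched libraries, with 1227 ± 63.9 TPM in goblet-enriched, 2040 ± 469 TPM in enterocyte-enriched and 657 ± 16.2 TPM in Lgr5-enriched libraries (limma adjusted p = 0.00398, 0.000223 and 0.00833 in the 3 comparisons). Cd82 and Cd9 were higher in enterocyte-enriched than in Lgr5-enriched libraries (log2 fold changes 1.06 and 0.76, limma adjusted p = 0.000899 and 0.00187) and Cd81 was lower (log2 fold change -1.69, limma adjusted p = 0.000277). Tspan15 had a log2 fold change of -1.34 in goblet-enriched against enterocyte-enriched libraries (limma adjusted p = 0.000241), and Cd63 was higher in goblet-enriched than in Lgr5-enriched libraries (log2 fold change 0.74, limma adjusted p = 0.00566). The calls named for these 6 genes held in the 18 alternatives, and so did 7 of the 9 calls of the list in enterocyte-enriched against Lgr5-enriched libraries. Tspan15 also passed as lower in goblet-enriched than in Lgr5-enriched libraries (log2 fold change -0.63, limma adjusted p = 0.0145), which ended under median-of-ratios scaling (0.0655) and without Lgr5-enriched replicate 2 or 3 (0.052 and 0.0605; range 0.00273 to 0.0655). Slc3a2, the heavy chain that binds β1 integrins, passed as higher in goblet-enriched than in enterocyte-enriched libraries (log2 fold change 0.75, limma adjusted p = 0.0194), which ended without goblet-enriched replicate 1 (0.0557), goblet-enriched replicate 2 (0.0507) or the 3 libraries numbered 1 (0.0743; range 0.00399 to 0.0743). The list's median log2 fold change was 0.19, 0.60 and -0.56 in the 3 comparisons.

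Of 6 other laminin receptors, all tested, 4 were lower and 0 higher in goblet-enriched against Lgr5-enriched libraries. These were Sdc4 (log2 fold change -1.50, limma adjusted p = 0.00252) and Sdc1 (log2 fold change -1.24, limma adjusted p = 0.000976), which are syndecans, and Bcam and Lgals3, whose adjusted p was 0.019 and 0.0224 with limma. Bcam was no longer called on leaving out Lgr5-enriched replicate 2 (0.0574) or 3 (0.0744; range 0.00144 to 0.0744), and the Lgals3 call without goblet-enriched replicate 1 (0.0599) or Lgr5-enriched replicate 2 or 3 (0.0659 and 0.0587; range 0.00512 to 0.0659). Lgals3, which encodes galectin-3, was at 207 ± 82.3 TPM in goblet-enriched, 3164 ± 496 TPM in enterocyte-enriched and 556 ± 268 TPM in Lgr5-enriched libraries, and was the 1 receptor of the list called higher in enterocyte-enriched than in Lgr5-enriched libraries (limma adjusted p = 0.000776). Rpsa, which encodes a ribosomal protein also described as a laminin receptor, was the 1 called lower there (log2 fold change -1.22, limma adjusted p = 0.0026). In goblet-enriched against enterocyte-enriched libraries 3 were lower, Lgals3, Sdc1 and Sdc4 (log2 fold changes -4.00, -1.48 and -0.88, limma adjusted p = 9.51e-05, 0.000244 and 0.0207), and the Sdc4 call ended without goblet-enriched replicate 1 (0.0667) or enterocyte-enriched replicate 2 or 3 (0.0714 and 0.0652; range 0.000296 to 0.0714). The list's median log2 fold change was -1.32, -0.44 and -0.74 in the 3 comparisons.

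Of 17 basement membrane genes, 6 were tested. Hspg2, the perlecan gene, was at 24.2 ± 10.7 TPM in goblet-enriched, 4.17 ± 2.21 TPM in enterocyte-enriched and 21.9 ± 1.60 TPM in Lgr5-enriched libraries, and was lower in enterocyte-enriched than in Lgr5-enriched libraries (log2 fold change -2.23, limma adjusted p = 0.00126). Agrn, which encodes agrin, had the reverse order, at 14.3 ± 4.79, 43.4 ± 3.12 and 29.5 ± 7.95 TPM, and was lower in goblet-enriched than in enterocyte-enriched libraries (log2 fold change -1.59, limma adjusted p = 0.0018). The list had 1 higher and 4 lower, 0 higher and 2 lower, and 2 higher and 2 lower in the 3 comparisons, with medians of -1.02, -0.70 and -0.29 on the log2 scale. Nid2, the nidogen that links laminin to collagen IV, was lower in goblet-enriched than in Lgr5-enriched libraries (log2 fold change -2.21, limma adjusted p = 0.00444). Its lower level in goblet-enriched than in enterocyte-enriched libraries (log2 fold change -1.48, limma adjusted p = 0.0197) ended as a call without goblet-enriched replicate 1 (0.0625) or enterocyte-enriched replicate 2 or 3 (0.0673 and 0.0549; range 0.000934 to 0.0673). Hspg2 was also higher in goblet-enriched than in enterocyte-enriched libraries (log2 fold change 2.27, limma adjusted p = 0.00136). Col4a1 and Col4a2, chains of the collagen IV network, were lower in goblet-enriched than in Lgr5-enriched libraries (log2 fold changes -1.02 and -1.10, limma adjusted p = 0.0153 and 0.011), calls that ended without the 3 libraries numbered 1 (0.0588 and 0.0554; ranges 0.0111 to 0.0588 and 0.00871 to 0.0554). Col4a1 was also lower in enterocyte-enriched than in Lgr5-enriched libraries (log2 fold change -0.88, limma adjusted p = 0.0195), which ended under both other scalings (0.0745 and 0.107) and without enterocyte-enriched replicate 2 (0.0666) or Lgr5-enriched replicate 1 (0.0616; range 0.0153 to 0.107). Ntn4, a netrin that binds laminin gamma chains, passed as higher in goblet-enriched libraries, at 9.86 ± 7.10 TPM, than in enterocyte-enriched (2.20 ± 0.645 TPM, limma adjusted p = 0.0303) and Lgr5-enriched libraries (2.37 ± 1.35 TPM, limma adjusted p = 0.038). Both Ntn4 calls ended without goblet-enriched replicate 2 (0.094 and 0.113) or 3 (0.0699 and 0.0862) and enterocyte-enriched replicate 2 (0.0588 and 0.0517) or 3 (0.0522 and 0.0528). The first also ended without enterocyte-enriched replicate 1 (0.0937), the second without Lgr5-enriched replicate 1 or 3 (0.107 and 0.0751), and their ranges were 0.00239 to 0.094 and 0.0031 to 0.113.

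Of 16 further integrin ligands, 7 were tested. Tgfb1, whose latent form is a ligand of αv integrins, was highest in goblet-enriched libraries, at 16.9 ± 1.29 TPM against 4.58 ± 1.21 TPM in enterocyte-enriched (limma adjusted p = 0.000251) and 6.69 ± 1.04 TPM in Lgr5-enriched libraries (limma adjusted p = 0.00223). Mfge8 was lower than in Lgr5-enriched libraries in both goblet-enriched and enterocyte-enriched libraries (log2 fold changes -1.63 and -2.72, limma adjusted p = 0.00683 and 0.000392), and Icam1, a ligand of β2 integrins, was lower in enterocyte-enriched than in Lgr5-enriched libraries (log2 fold change -2.77, limma adjusted p = 0.00388). The counts were 1 higher and 2 lower, 0 and 2, and 3 and 2 in the 3 comparisons, with medians of -0.52, -0.52 and 1.08 on the log2 scale. In goblet-enriched against enterocyte-enriched libraries Thbs1 and Mfge8 passed as higher (limma adjusted p = 0.0225 and 0.0293) and Fn1 and Cdh1 as lower (limma adjusted p = 0.037 and 0.0147). The call of Thbs1, which encodes thrombospondin-1, ended without goblet-enriched replicate 1 or 2 (0.0505 and 0.0698; range 0.00614 to 0.0698). That of Mfge8, a ligand of αv integrins, ended without goblet-enriched replicate 2 or 3 (0.0755 and 0.098), enterocyte-enriched replicate 1 or 2 (0.0999 and 0.0827) or the 3 libraries numbered 1 (0.052; range 0.0018 to 0.0999). The call of Fn1, the fibronectin gene, ended with no filter (0.0632) and without goblet-enriched replicate 1 or 2 (0.116 and 0.0681), enterocyte-enriched replicate 1 or 2 (0.127 and 0.0581) or the 3 libraries numbered 1 (0.210; range 0.0176 to 0.210). For Cdh1, the E-cadherin gene, the call ended without goblet-enriched replicate 3 (0.052) or enterocyte-enriched replicate 2 (0.0554; range 0.00385 to 0.0554). Its lower level in goblet-enriched than in Lgr5-enriched libraries (limma adjusted p = 0.0422) was not called in 11 of the 18 alternatives, among them all but 2 of the single libraries left out (goblet-enriched replicate 1 and enterocyte-enriched replicate 1; range 0.0117 to 0.248).

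Regulators inside the cell passed the test in both directions. Of 13 integrin activators and inhibitors 12 were tested, with 1 higher and 1 lower, 1 and 3, and 3 and 2 in the 3 comparisons. Fermt3, the kindlin best known from blood cells, was at 10.5 ± 0.235 TPM in goblet-enriched, 3.31 ± 1.25 TPM in enterocyte-enriched and 3.26 ± 1.31 TPM in Lgr5-enriched libraries (limma adjusted p = 0.00478 for goblet-enriched against Lgr5-enriched libraries). Apbb1ip, which encodes the talin recruiter RIAM, was highest in Lgr5-enriched libraries, at 3.89 ± 1.86, 2.85 ± 0.827 and 24.5 ± 4.29 TPM (log2 fold changes -2.44 and -2.73, limma adjusted p = 0.000491 and 0.00026 for goblet-enriched and enterocyte-enriched against Lgr5-enriched libraries). Fermt1, the epithelial kindlin, was lower in enterocyte-enriched than in Lgr5-enriched libraries (log2 fold change -0.70, limma adjusted p = 0.0025), a call that ended under median-of-ratios scaling (0.146; range 0.00129 to 0.146). It passed as higher in goblet-enriched than in enterocyte-enriched libraries (log2 fold change 0.48, limma adjusted p = 0.0178), which ended under the same scaling (0.149) and without enterocyte-enriched replicate 2 (0.0699; range 0.00801 to 0.149). Itgb1bp1, the integrin inhibitor ICAP-1, was higher (log2 fold change 0.62, limma adjusted p = 0.00775) and Sharpin, another inhibitor, lower (log2 fold change -0.43, limma adjusted p = 0.0373) in goblet-enriched than in enterocyte-enriched libraries. The Itgb1bp1 call ended under quantile normalization (0.079; range 0.00441 to 0.079), and that of Sharpin without goblet-enriched replicate 1 or 2 (0.0904 and 0.0517), enterocyte-enriched replicate 1 or 3 (0.0982 and 0.106), Lgr5-enriched replicate 2 or 3 (0.0536 and 0.0539) and in 2 further alternatives (range 0.00632 to 0.106). Flna was lower in enterocyte-enriched than in Lgr5-enriched libraries (limma adjusted p = 0.0426), which was not called in 10 of the 18 alternatives. Among these were both other scalings (0.10 and 0.0998) and leaving out enterocyte-enriched replicate 1 or 3 (0.133 and 0.0685), any Lgr5-enriched replicate (0.051, 0.128 and 0.083) or goblet-enriched replicate 3 (0.0596; range 0.000848 to 0.133).

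Of 27 focal adhesion adaptors and kinases 22 were tested, with 0 higher and 3 lower, 3 and 5, and 3 and 3 in the 3 comparisons. Median-of-ratios scaling gave 2 and 2, 6 and 3, and 2 and 6, so the balance of directions in this list depended on the scaling. Tns4, the tensin cten, was at 16.9 ± 5.33, 109 ± 6.92 and 45.1 ± 12.6 TPM in goblet-enriched, enterocyte-enriched and Lgr5-enriched libraries, the order of Lamb3, and was called in all 3 comparisons in the 18 alternatives. The alpha-actinins differed from each other: Actn4 was higher (log2 fold change 0.99, limma adjusted p = 0.00215) and Actn1 lower (log2 fold change -1.54, limma adjusted p = 0.000537) in enterocyte-enriched than in Lgr5-enriched libraries. Both also passed in goblet-enriched against enterocyte-enriched libraries (log2 fold changes -1.39 and 1.88, limma adjusted p = 0.00044 and 0.000189). Lims1, the PINCH adaptor of integrin-linked kinase, was lower in enterocyte-enriched than in Lgr5-enriched libraries (log2 fold change -1.08, limma adjusted p = 0.00117) and higher in goblet-enriched than in enterocyte-enriched libraries (log2 fold change 1.56, limma adjusted p = 0.000199). Tns3, another tensin, was highest in Lgr5-enriched libraries, at 41.0 ± 6.30, 54.5 ± 4.40 and 104 ± 22.5 TPM (limma adjusted p = 0.000986 for goblet-enriched and 0.00364 for enterocyte-enriched against Lgr5-enriched libraries), and Ptk2b, the kinase PYK2, was lower in goblet-enriched than in enterocyte-enriched libraries (log2 fold change -0.93, limma adjusted p = 0.0111). The calls of these 5 genes held in the 18 alternatives, whereas those of Ptk2, Src and Crkl, with smaller fold changes, did not. Ptk2, the focal adhesion kinase, passed as lower in goblet-enriched than in Lgr5-enriched libraries (log2 fold change -0.37, limma adjusted p = 0.0311), which ended in 9 alternatives, among them both other scalings and leaving out goblet-enriched replicate 2 (0.0998) or 3 (0.0548), enterocyte-enriched replicate 2 (0.0527) or Lgr5-enriched replicate 1 (0.0596) or 3 (0.121; range 0.0132 to 0.401). Src passed as higher in enterocyte-enriched than in Lgr5-enriched libraries (log2 fold change 0.44, limma adjusted p = 0.0496), which ended in 12 alternatives, among them every single library left out but Lgr5-enriched replicate 2 (range 0.00208 to 0.150). Crkl, an adaptor, was lower in enterocyte-enriched than in Lgr5-enriched libraries (limma adjusted p = 0.00347), which ended under both other scalings (0.101 and 0.0669; range 0.00101 to 0.101), and passed as higher in goblet-enriched than in enterocyte-enriched libraries (limma adjusted p = 0.0327), which ended in 8 alternatives, among them leaving out goblet-enriched replicate 1 or 2 (0.0704 and 0.0605) or any enterocyte-enriched replicate (0.061, 0.0857 and 0.0765; range 0.00953 to 0.188).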

How the data were processed

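Messenger RNA was sequenced from 9 libraries, 3 for each of 3 populations. In the deposited table the authors give, for each gene symbol and library, the log2 of TPM from 1 TPM upwards and TPM - 1 for lower levels. This was read from the values: undone in this way, every library sums to 1000000 TPM. Cufflinks and mm10 are named in the submitters' processing notes. Annotation, filters and use of strand in counting are not stated there, so reads of overlapping genes cannot be separated. Among the tested members these are Itga1 with Gm49395, Itga10 with Gm42957 and Itgam with Gm49368 on the same strand. On the opposite strand they are Itgav with Gm13684 (634 bases), Itgb4 with B230344G16Rik, Lama3 with Gm29200 and Itga7 with Mettl7b (9 bases).

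The TPM values of 18386 out of 18396 detected genes were whole multiples of a read (99.9%, within 1e-06 read). The reads so recovered are lower bounds and carry counting error only. A gene entered the test from 1 TPM in 3 or more libraries (12888 genes). The test was limma 3.58.1 (R 4.3.3; lmFit, then eBayes with a trend) on log2(TPM + 1), with a mean for each population over all 9 libraries, 6 residual and 3.21 prior degrees of freedom, two-sided, and Benjamini-Hochberg adjustment within a comparison. Fold changes on this scale understate those of low genes. The test was tried on simulated data. Alternatives were median-of-ratios and quantile scaling, a pseudocount of 0.1 TPM, no filter or 5 TPM (17 alternatives for genes this removes, 18 for others), a fit to 6 libraries, a replicate block, limma-voom on recovered reads, and leaving out each library or the 3 numbered 1.

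Per the labels, the 9 libraries come from 3 mice. Whether same-numbered libraries share a mouse is not said. They deviated together (r = 0.194 to 0.601 for the 9 pairs), which met the bar set for pairing. Libraries of different number were not compared in this way, so these values show neither a pairing nor a shared mouse. The main test has no block, and the blocked fit is an alternative, printed where it changed a call of a member given with a test. The library labelled enterocyte-enriched replicate 1 had Xist at 0.128 TPM and a Y-linked sum of 139 TPM. In goblet-enriched and Lgr5-enriched replicate 1 Xist was 110 and 150 TPM, and the Y-linked sum 0 and 0.325 TPM. That enterocyte-enriched library therefore came from another mouse than these, and the labels of mouse and sex cannot all hold. In comparisons with enterocyte-enriched libraries the block is thus not a pairing by mouse. All per-sample columns were used, 0 left out. Positions are from GENCODE M21, of the same build. The members and lists were chosen with earlier results of these data known. All members but 1 are named, and of each list but for 1 gene up to 3 called genes with the largest fold change in each direction and comparison. Sdc1 is described also in goblet-enriched against Lgr5-enriched libraries, where this rule did not pick it. The member and the gene left out stay in the counts and sums but are not reported here.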

Additional observations from a re-analysis of the deposited data

How the results depend on the processing

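Of the 21 tested members, 7 were called in goblet-enriched against Lgr5-enriched libraries, and the count was 4 under median-of-ratios scaling, 12 without the 3 libraries numbered 1, and 3 to 7 when each library was left out in turn (4 without goblet-enriched replicate 3, 4 without Lgr5-enriched replicate 2 and 3 without Lgr5-enriched replicate 3). It was 12 in enterocyte-enriched against Lgr5-enriched libraries (8 to 14 with each library left out) and 8 in goblet-enriched against enterocyte-enriched libraries (6 to 8). The 12 include Lama3 and Lama4 and the 8 include Lama3, genes whose difference the filter fixed. Of all tested genes, 34.3%, 49.6% and 44.1% were called in the 3 comparisons, so the counts are read only against these shares. With the replicate block the counts were 10, 16 and 11, and the block added 10 calls and removed 0. Over the 63 tests of the members, median-of-ratios scaling ended 5 calls and added 3, quantile normalization ended 8 and added 3, and a pseudocount of 0.1 TPM changed 0. No called member changed sign in any alternative run. Levels below about 1 TPM rest on few reads, and 3 libraries a population limit the precision of every fold change.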
